A study of Homo sapiens with 8 samples.

Results

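MDA-MB468 parental cells, a triple-negative breast cancer line, were compared after 6 hours of 1 μmol/L Acetalax (oxyphenisatin acetate) and without drug. The pair consists of 2 of the 8 libraries in the series, 1 with the label Control and 1 with the label Acetalax_treated. Both cultures grew in RPMI medium with serum and antibiotics and carried no other treatment or genetic change named in the labels, which name no vehicle for the control. The other 6 libraries are the same comparison in MDA-MB468 cells made resistant by chronic exposure (CE) to the drug, and in parental and CE cells of BT549, a second triple-negative line. CE cells had been exposed to 40 μmol/L Acetalax and were kept without it for 2 weeks. The study asked which transcripts the drug alters in sensitive and in resistant cells. The control library held 48626733 counts on genes and the Acetalax library 48571023, on 29576 genes with at least 1 count in either. Values are given as CPM, a gene's count scaled to its library's total on genes, and the log2 CPM ratio is the Acetalax library over the control. The pair was described over the 10768 genes whose mean over both libraries was 5 CPM or more, of which 10326 are protein-coding and 442 are noncoding or other genes. They held 99.0% of the counts in the control and 99.1% after Acetalax. With 1 library a side there is no replicate check and no test. A gene is called higher or lower from a 2-fold difference. Its 95% counting interval (exact, Clopper-Pearson) covers counting error only and not variation between cultures. Reads without molecular identifiers are not independent molecules, so even the counting error may be larger than the interval shows.

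Acetalax is a diphenolic laxative known to act on TRPM4, a calcium-activated channel that lets sodium and other monovalent cations cross the plasma membrane. MDA-MB468 is an epithelial line of basal type known for its amplified EGFR gene, the receptor of epidermal growth factor, which signals through MAP kinases. Cells that are stretched, swollen or exposed to growth factors and cytokines switch on immediate early genes first. Among these is FOS, whose protein, like that of FOSL1, pairs with JUN proteins as AP-1. NF-kB, STAT3, SMAD3, SRF and YAP or TAZ with TEAD proteins are further regulators with well-known target genes, and the results are ordered by these pathways. Rises and falls are of RNA in the culture as a whole, in which fewer cells of a kind and less RNA per cell cannot be told apart.

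Markers of the labelled cell type were present in both libraries. EPCAM had 19903 counts in the control and 21296 after Acetalax, CDH1 (E-cadherin) 5780 and 6421, KRT8 110695 and 113813, and KRT18 27192 and 28610, with log2 ratios from 0.04 to 0.15. KRT19, another epithelial marker, went the other way, from 116339 to 74058 counts (-0.65), and the sum of these 5 markers had a ratio of -0.20. Of the receptors that define triple-negative cells, PGR was at 0 in both libraries, ESR1 had 205 and 170 counts and ERBB2 4280 and 2161. Defining markers of blood cells were at or near 0: CD3E and HBB had no count in either library and PTPRC had 4 in each. CD14, which was on the same list, had 2293 and 989 counts. Summed over each list, markers of blood cells had 47.3 and 20.5 CPM in control and treated cells, of which CD14 made up 47.2 and 20.4. Endothelium (CDH5) had 0.740 and 3.21 CPM. Markers of fibroblasts (COL1A1, COL1A2 and PDGFRB) had 17.6 and 24.9 CPM, of which COL1A1 made up 16.5 and 24.8. Both cultures are of 1 labelled cell line, and which cells these reads came from was not tested. CDH2, the N-cadherin of mesenchymal cells such as BT549, was at 0, and VIM had 225 and 434 counts. TRPM4 itself had 2383 and 2322 counts in control and treated cells, a log2 CPM ratio of -0.04 (counting interval -0.12 to 0.05), which includes 0. The ratio was 0.07 with TMM scaling and 0.05 with DESeq2 size factors.

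After 6 hours of Acetalax 415 of the 10768 genes were at least 2-fold higher, which is 3.85%, and 292 were at least 2-fold lower, which is 2.71%. Large changes were mostly rises: 79 genes were at least 4-fold higher and 27 at least 4-fold lower, and 24 against 2 passed 8-fold. No gene (0) fell 16-fold, whereas 11 rose by that much. The counting interval lay wholly past 2-fold for 354 of the higher and 187 of the lower genes. Nearest to the threshold, BIN3 was just inside (1.00 on the log2 scale, 1.0007) and NETO2 just outside (0.9993) among higher genes, and PYCRL (-1.0014) and CENPE (-0.9976) among lower ones. The median log2 CPM ratio over all 10768 genes was -0.10, and 40.1% of the genes had a ratio above 0 and 59.9% below. From the 25th to the 75th percentile the ratios lay between -0.35 and 0.19. Other scalings shift every ratio, by 0.11 with edgeR's TMM method, by 0.09 with DESeq2 size factors and by -0.04 with the total of protein-coding nuclear genes. TMM brought the median to 0.0070 and gave 517 higher and 212 lower genes, so that 70.9% of the calls were rises in place of 58.7%, and DESeq2 size factors gave 69.0%. The total of protein-coding nuclear genes gave 389 higher and 335 lower genes, of which 53.7% were rises. Genes called higher took 2.25% of all counts in the control and 6.35% after Acetalax, and genes called lower 1.29% and 0.519%.

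**Figure D1:**
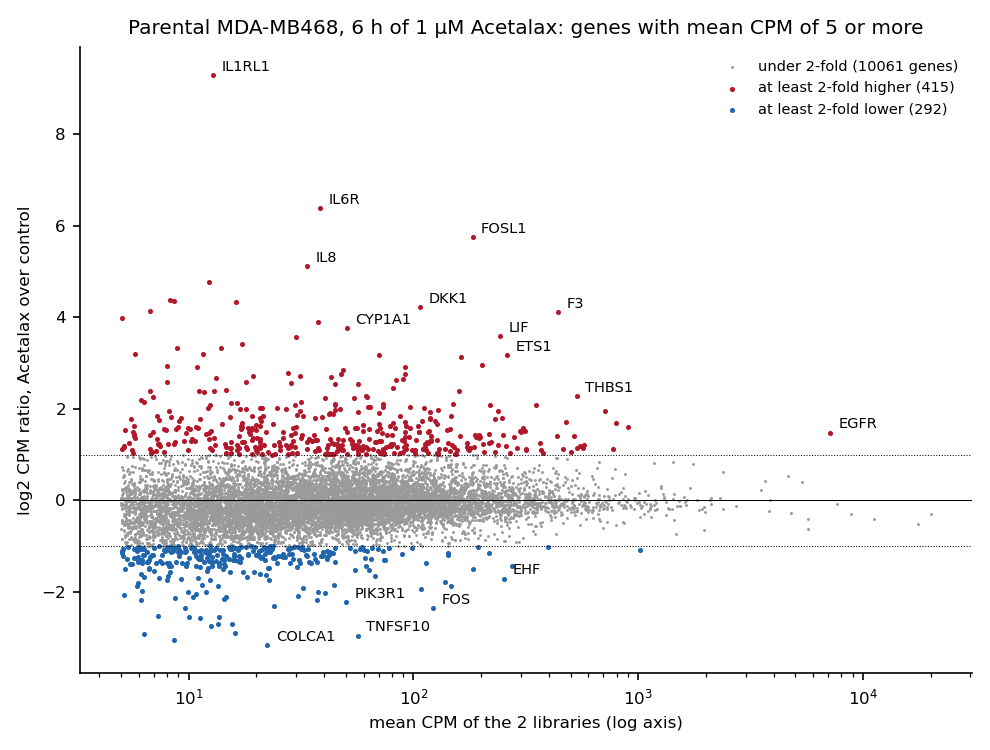
Log2 CPM ratio (Acetalax over control) of each of the 10768 genes whose mean was 5 CPM or more, against that mean on a log axis, 1 point per gene, with dotted lines at 2-fold. The 415 higher genes (red) reach much larger ratios than the 292 lower genes (blue), and EGFR stands alone at the right among the called genes.

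The 4 largest rises among protein-coding genes were those of IL1RL1, IL6R, FOSL1 and IL8. IL1RL1, the receptor of interleukin 33, had 2 counts in the control and 1250 after Acetalax (chr2:102927962-102968497 in hg19), a log2 ratio of 9.29 with a wide counting interval of 7.43 to 12.34. IL6R, the interleukin 6 receptor (chr1:154377669-154441926), rose from 44 to 3693 counts, a ratio of 6.39 (5.96 to 6.86). Both genes were thus close to silent in the control. FOSL1, which encodes the AP-1 protein FRA1 (chr11:65659520-65668044), rose from 323 to 17492 counts and from 6.64 to 360.1 CPM, which is 54.2-fold (5.76, 5.60 to 5.92). IL8, the neutrophil chemokine (chr4:74606223-74609433), rose from 91 to 3174 counts (5.13, 4.83 to 5.44). Also among the 20 largest, F3, tissue factor, the cell surface starter of coagulation (chr1:94994781-95007356), rose from 2339 to 40441 counts and from 48.1 to 833 CPM, a 17.3-fold rise (4.11, 4.05 to 4.17).

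Some of the 20 largest rises were in genes of secreted proteins. DKK1, an inhibitor of WNT signalling, rose from 528 to 9864 counts (4.23), LIF, an interleukin 6 family cytokine, from 1800 to 21772 counts (3.60), and CLCF1, another member of that family, from 144 to 1530 counts (3.41). CXCL1 rose from 35 to 620 counts (4.15), BMP6 from 29 to 461 counts (3.99) and IGFL1 from 78 to 782 counts (3.33). Others of the 20 act inside the cell or in keratin structures. TNFAIP3, the A20 inhibitor of NF-kB, rose from 231 to 3438 counts (3.90), and SOCS2, an inhibitor of cytokine receptors, from 55 to 506 counts (3.20). CYP1A1, a cytochrome P450 under the aryl hydrocarbon receptor, rose from 337 to 4564 counts (3.76), and HMGA2, a chromatin protein, from 74 to 1500 counts (4.34). KRTAP2-3 (4.78) and KRT75 (4.36) belong to hair and nail keratin structures, NEXN (3.32) binds actin, and RNF222 (3.20) has a RING domain. KRTAP2-3 has near-identical copies beside it, so its count is uncertain. Of these 20 genes, 7 were under 1 CPM in the control, which means that they passed the filter through the treated library.

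**Figure D2:**
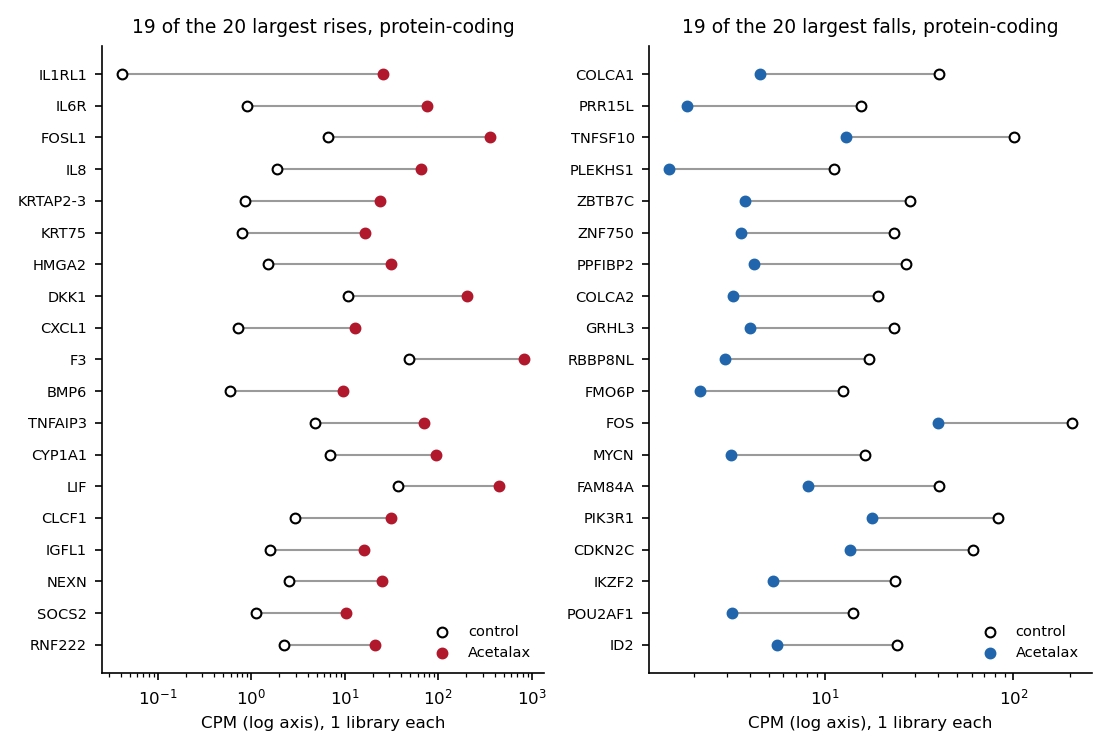
CPM in the control library (open circles) and the Acetalax library (filled circles) for 19 of the 20 protein-coding genes with the largest rise (left) and 19 of the 20 with the largest fall (right), on log axes, 1 library per point. IL1RL1 starts at 0.0411 CPM, while F3 and LIF end at the highest levels of the left panel, and FOS stays the highest of the falling genes after Acetalax.

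Promoter sequence was read for the genes with the largest rises because AP-1 and NF-kB genes were among them. RefSeq windows (GRCh38.p14, 250 bases before to 50 after the start, 300 in all) were matched to 8575 of the 10326 protein-coding genes, and to 14 of these 20. The letters TGANTCA, to which AP-1 binds and which read alike on both strands, occurred before the start of IL1RL1, IL8 and F3, and NF-kB letters before that of IL8, CXCL1 and TNFAIP3. The NF-kB letters searched were GGGAC directly followed by TTTCC and, added after the sequences were seen, GGAATTTCC, each on both strands. In the whole windows, TGANTCA stood in 4.19% of the 8575 genes and the NF-kB letters in 0.21% and 0.408%. Of the 391 protein-coding genes called higher, 304 had a window. Under 80% of these and of the 20 could thus be searched, so a share over either set would be void, and none is given or read against those of all genes. The stretches are shown 5′ to 3′ on the strand of the gene with the matched letters in capitals, IL1RL1 at chr2:102337051-102337087, IL8 at chr4:73740417-73740501, F3 at chr1:94541948-94541997 (minus strand), CXCL1 at chr4:73869300-73869338 and TNFAIP3 at chr6:137867177-137867216.
IL1RL1: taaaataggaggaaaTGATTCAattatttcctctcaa
IL8: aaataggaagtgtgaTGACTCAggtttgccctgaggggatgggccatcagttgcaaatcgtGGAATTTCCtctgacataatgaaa
F3: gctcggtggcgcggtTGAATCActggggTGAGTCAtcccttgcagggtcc
CXCL1: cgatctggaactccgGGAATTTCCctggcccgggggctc
TNFAIP3: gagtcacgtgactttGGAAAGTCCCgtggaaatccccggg
The IL8 stretch holds TGANTCA letters 137 bases before the start and NF-kB letters 91 bases before it, and F3 holds TGANTCA 2 times, 223 and 210 bases before its start. In TNFAIP3 the letters lie on the opposite strand. A match is a description of the letters and not of binding.

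Cytokines and their receptors were measured as 20 genes, of which 9 rose, 3 fell and 15 had a ratio above 0, with a median of 0.79 against -0.10 for all genes. Besides IL6R, LIF, CLCF1 and SOCS2, the kinase PIM1, a STAT3 and STAT5 target, rose from 1036 to 7847 counts (2.92, 2.83 to 3.02). IL1RAP, the partner chain of IL1RL1, rose from 556 to 1756 counts (1.66), so both chains of the interleukin 33 receptor were higher. OSMR, the oncostatin M receptor (1.08), IL18 (1.36) and PIM3 (1.24) rose as well. The 3 that fell were TNFSF10 (TRAIL, a death ligand), from 4871 to 628 counts (-2.95, -3.08 to -2.83), TNFSF15 (-1.40) and CISH, a STAT5 target (-1.31). The cytokine genes therefore did not move as 1 block. Of 5 chemokines measured, 3 rose, IL8, CXCL1 and CXCL16 (1.01), and CCL28 had a ratio of -0.89, with a median of 1.01. With the total of protein-coding nuclear genes 2 of the 5 rose, and CXCL16 was under 2-fold.

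Among 25 NF-kB subunits, inhibitors and targets, 7 rose and 0 fell, 21 had a ratio above 0, and the median was 0.56. Apart from TNFAIP3 these were the subunit genes RELB, from 595 to 4030 counts (2.76, 2.64 to 2.89), and NFKB2, from 1860 to 6012 counts (1.69), the kinase MAP3K14 (1.28), the inhibitor of apoptosis BIRC3, from 805 to 4703 counts (2.55), the TWEAK receptor TNFRSF12A (1.46) and the adhesion molecule ICAM1 (1.44). RELB, NFKB2 and MAP3K14 are all parts of the noncanonical arm of the pathway.

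The AP-1 family divided by member. FOSL1 and FOSL2 (from 5371 to 11632 counts, 1.12) rose, while FOS fell from 9949 to 1933 counts, from 204.6 to 39.8 CPM (-2.36, -2.43 to -2.29). The other 7 of the 10 AP-1 and ATF genes measured stayed under 2-fold, with BATF at -0.64, and the median was 0.13. Among 14 EGR, NR4A and other immediate early genes, 5 rose and 1 fell, with a median of 0.71. The risen genes were CCRN4L, a NADPH phosphatase gene with a daily rhythm, from 328 to 1310 counts (2.00), SRF, the serum response factor, from 3571 to 10580 counts (1.57), the RNA decay factors ZFP36L2 (1.42) and ZFP36 (1.27), and CSRNP1 (1.10). NR4A2, an orphan nuclear receptor, fell from 893 to 346 counts (-1.37, -1.55 to -1.19).

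All 3 small MAF genes, whose proteins pair with NRF2, BACH1 and FOS proteins, rose: MAFF from 1131 to 6961 counts (2.62), MAFK from 2945 to 9401 counts (1.68) and MAFG from 1871 to 5774 counts (1.63). They are the 3 called members of the 8 small MAF, BACH and NRF genes (median 0.58), in which BACH1 had 0.60. Of 12 KLF factors, KLF10 (1.65) and KLF6 (1.14) rose, 0 fell and KLF8 had -0.97 (median 0.43). ETS factors moved both ways. ETS1 rose from 2535 to 22805 counts (3.17, 3.11 to 3.23) and ELK3 from 352 to 907 counts (1.37), whereas the epithelial members EHF, from 18841 to 5750 counts (-1.71), and ELF3, from 14461 to 6510 counts (-1.15), fell, with a median of 0.22 over 17. In the MYC network MYCN fell from 787 to 154 counts (-2.35) and MXD3 (-1.23) fell, MYC had 5505 and 9609 counts (0.81), and the median of the 11 genes was 0.22.

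MAP kinase feedback genes, which ERK signalling induces and whose proteins dampen it, counted 5 rises and 0 falls among 16 (median 0.61). The phosphatase genes DUSP7 (1.85), DUSP5 (1.59) and DUSP6 (1.52) and the Sprouty genes SPRY2 (1.44) and SPRY4 (1.34) rose. DUSP6, for example, went from 316 to 907 counts. Of 8 EGFR family ligands, receptors and sheddases, 4 rose and 0 fell (median 0.73). The ligand genes were HBEGF, from 231 to 982 counts (2.09), and TGFA, from 1701 to 3765 counts (1.15), and the receptor genes were MET (1.05) and EGFR. EGFR rose from 182249 to 508714 counts and from 3748 to 10474 CPM (1.48, 1.47 to 1.49), the largest gain in CPM of any gene (6726), and 6.01% of all the CPM gained by genes with a ratio above 0.

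YAP and TAZ respond to cell shape and tension, and the list of their targets had the highest median of all 51 lists. Of 23 genes measured 12 rose, 0 fell and 21 had a ratio above 0, with a median of 1.09. The 2 most used readouts of the pathway, CYR61, from 14267 to 55150 counts (1.95), and CTGF, from 6995 to 16127 counts (1.21), rose, as did ANKRD1, from 351 to 1393 counts (1.99). Others were F3, GADD45A (2.08), TGFB2 (1.95), NUAK2 (1.51), LATS2 (1.34), FJX1 (1.24), FRMD6 (1.16) and AMOTL2 (1.09) and the DNA-binding partner TEAD1 (1.21). LATS2 and AMOTL2 encode inhibitors of the same pathway.

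Among 26 TGF-beta and activin genes 10 rose and 2 fell (median 0.56). The ligand genes INHBA, from 249 to 1626 counts (2.71), TGFB2, from 4754 to 18409 counts (1.95), and BMP2 (1.21) rose. The receptor gene TGFBR2 (1.16) and the signal transducer SMAD3, from 2822 to 9342 counts (1.73), rose with them. SMAD4, also on the list, was under the filter. THBS1, thrombospondin 1, which activates latent TGF-beta, rose from 8815 to 42889 counts (2.28, 2.25 to 2.32). The activin-binding FSTL3 (1.59) and the feedback gene PMEPA1 (1.25) rose too. Members of the ID family, inhibitors of helix-loop-helix factors that BMP signals induce, differed: ID1 fell from 1710 to 511 counts (-1.74) and ID2 from 1164 to 268 counts (-2.12), while ID3 rose from 3510 to 7580 counts (1.11).

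Actin cytoskeleton and SRF target genes were nearly all on the higher side, 25 of 26, with 6 rises, 1 fall and a median of 0.56. Rises were found in MICAL2, an actin oxidase (1.59), PDLIM5 (1.44), the focal adhesion genes ZYX (1.17) and VCL, from 17190 to 37886 counts (1.14), FHL2 (1.14) and LIMA1 (1.03). With the total of protein-coding nuclear genes 5 of the 26 rose, and LIMA1 was under 2-fold. TNS1, tensin 1, fell from 3361 to 933 counts (-1.85). The list names SRF targets, called or not, so a motif share over it describes the list and not the drug response. The CArG box that SRF binds was found in the promoter windows of 5 of the 22 list members with a window (22.7%), against 1.03% of the 8575 genes. It is shown in capitals for FHL2 (chr2:105438590-105438629, minus strand), a gene called higher, and, chosen after its value was seen, for FLNA (chrX:154374704-154374743, minus strand), the filamin gene, which gained 1658 CPM.
FHL2: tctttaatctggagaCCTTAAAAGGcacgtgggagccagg
FLNA: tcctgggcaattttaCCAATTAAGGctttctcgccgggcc
The boxes begin 101 and 94 bases before the start.

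**Figure D3:**
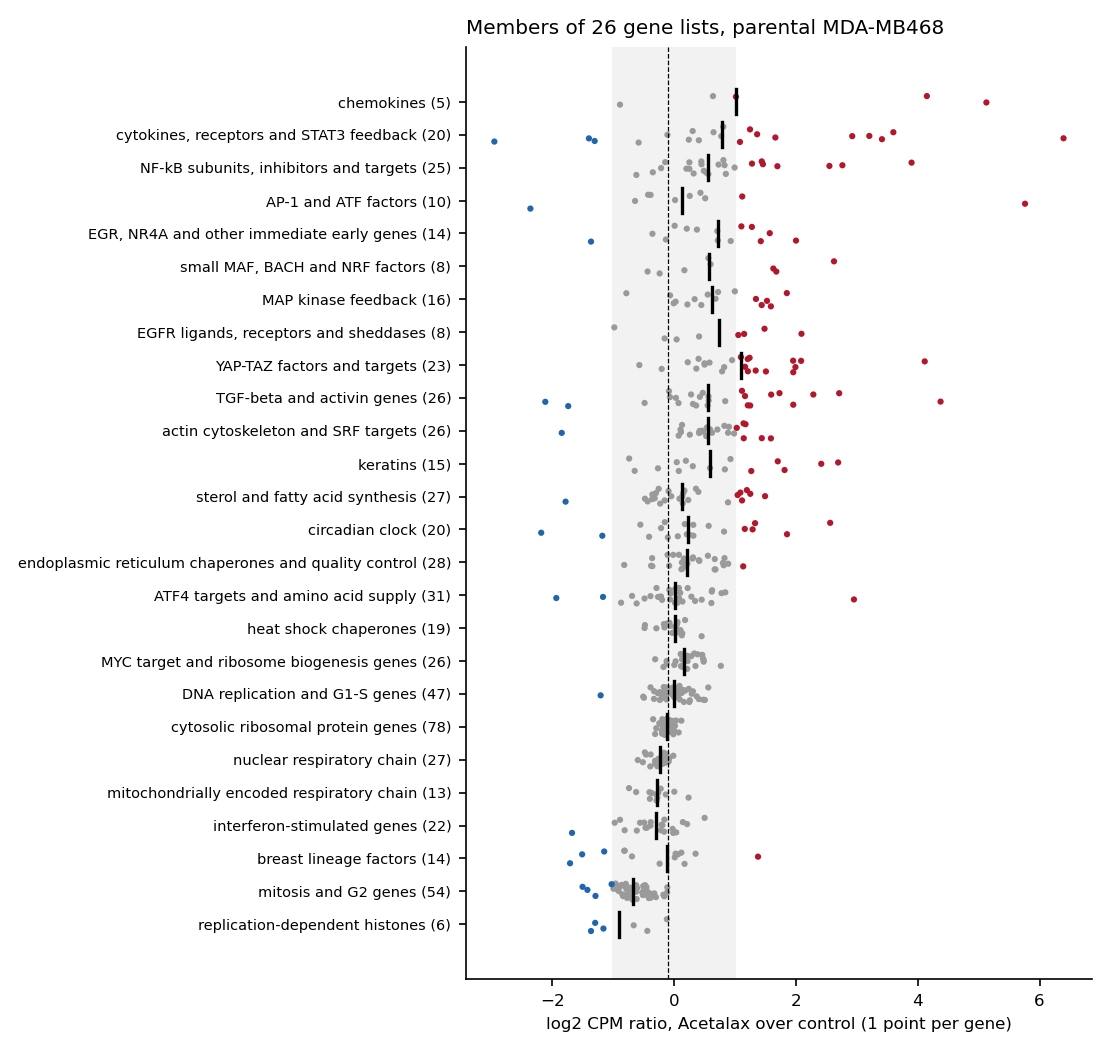
Log2 CPM ratio of every measured member of 26 of the 51 gene lists, 1 point per gene (number of genes in brackets), with members at least 2-fold higher in red and at least 2-fold lower in blue. Black bars are list medians, the dashed line is the median of all genes (-0.10) and the grey band covers changes under 2-fold. Chemokine and YAP-TAZ medians lie past the band, and all 54 mitosis genes lie left of 0.

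Some keratin and surface protein genes rose, and the others stayed under 2-fold. Of 15 keratins 5 rose and 0 fell (median 0.59): KRT6B, from 560 to 3613 counts (2.69), KRT6A, from 225 to 1198 counts (2.41), KRT80, from 5345 to 18746 counts (1.81), KRT17, from 18209 to 59097 counts (1.70), and KRT23 (1.27). KRT6A and KRT6B, which appear in wounded skin together with KRT17, are near-identical, so the split of counts between them is uncertain. The luminal keratin KRT19 had 116339 and 74058 counts (-0.65). Complement and immune surface genes numbered 5 rises and 0 falls of 19 (median 0.60), with the collagen receptor ITGA2, from 679 to 6116 counts (3.17), the complement inhibitor CD55, from 1344 to 5801 counts (2.11), the fibronectin receptor ITGA5 (1.82), PVR (1.16) and the ectonucleotidase NT5E (1.09). Of 14 matrix proteases and inhibitors 3 rose, among them the urokinase receptor PLAUR, from 1202 to 4919 counts (2.03), and ADAMTS1 (1.51), and TIMP3 (-1.04) fell (median 0.39). With TMM scaling TIMP3 was under 2-fold. Of 16 epithelial and mesenchymal genes 1 was called, CLDN1, a tight junction claudin, from 914 to 3359 counts (1.88), and CLDN3 had -0.94 (median 0.13).

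Among WNT and circadian clock genes both rises and falls were called. Over all genes 3.85% were called higher and 2.71% lower, so 0 falls among 15 Notch genes is near the share of all genes. Of 24 WNT genes, DKK1 and the noncanonical ligand genes WNT5B (1.24) and WNT5A, from 222 to 472 counts (1.09), rose, and AXIN2, a feedback target of beta-catenin, fell from 878 to 242 counts (-1.86), with a median of 0.04. Of 15 Notch genes MFNG, from 113 to 500 counts (2.15), and NRARP, a Notch feedback target (1.49), rose and 0 fell (median 0.23). Of 20 circadian clock genes 5 rose, NPAS2, from 404 to 2381 counts (2.56), NR1D1 (1.85), CRY1 (1.33), PER1 (1.29) and ARNTL2 (1.16), and 2 fell, among them DBP (-1.18), with a median of 0.23.

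The 20 largest falls among protein-coding genes lay between -3.16 and -2.12 on the log2 scale. COLCA1, a gene of the colorectal cancer susceptibility region at chr11:111164114-111175770, fell from 1959 to 219 counts (-3.16, -3.37 to -2.96) and its neighbour COLCA2 from 933 to 157 counts (-2.57). The 2 genes overlap, so their counts may not be separate. POU2AF1, a coactivator of POU2F factors in the same region, fell from 686 to 156 counts (-2.14). GRHL3, a grainyhead factor of epidermal differentiation, fell from 1135 to 194 counts (-2.55) and ZNF750, another regulator of that programme, from 1133 to 174 counts (-2.70). PIK3R1, the regulatory subunit of phosphoinositide 3-kinase, fell from 4023 to 859 counts (-2.23, -2.33 to -2.12), and CDKN2C, an inhibitor of cyclin D kinases, from 2961 to 657 counts (-2.17).

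Others of the 20 largest falls were TNFSF10, FOS, MYCN and ID2, the lymphoid factor gene IKZF2 (-2.16) and the zinc finger gene ZBTB7C (-2.91). PRR15L (-3.06), PLEKHS1 (-2.92), PPFIBP2 (-2.69), RBBP8NL (-2.54), FAM84A (-2.30) and FMO6P (-2.52) were further ones. Of the 20, 13 were under 5 CPM after Acetalax. The filter at a mean of 5 CPM lets no falling gene be under 1 CPM in the control. Among 14 breast lineage factors, EHF, ELF3 and the luminal pioneer factor FOXA1, from 3947 to 1382 counts (-1.51, -1.60 to -1.42), fell and RUNX1 rose from 2488 to 6449 counts (1.38), with a median of -0.12.

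Genes of cell division had ratios below 0 throughout, while genes of DNA replication lay on both sides of 0. All 54 mitosis and G2 genes measured had a ratio below 0, also with TMM scaling and with the total of protein-coding nuclear genes, and their median was -0.68 (range -1.505 to -0.11). The share of all genes with a ratio below 0 was 59.9%. Called falls numbered 4 and rises 0. They were KIF20A, a kinesin of cytokinesis, from 13207 to 4648 counts (-1.505, -1.55 to -1.46), CDC25C, the phosphatase that activates CDK1, from 1030 to 383 counts (-1.43), HMMR, a spindle protein, from 5161 to 2104 counts (-1.29), and the kinetochore gene CENPF, from 25788 to 12629 counts (-1.03). CENPF was under 2-fold with TMM scaling. The 47 DNA replication and G1-S genes had a median of 0.0034 (24 higher and 23 lower), which was 0.11 with TMM scaling and -0.03 with the total of protein-coding nuclear genes. PRIM1, a primase subunit, was the 1 called fall, from 729 to 315 counts (-1.21), and CCNE1 (0.50) and the origin licensing gene CDC6 (0.56) had ratios above 0.

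The promoter windows of the mitosis genes often held the cell cycle homology region, searched as TTTGAA on both strands. It occurred in 27 of the 45 list members with a window (60.0%), against 9.57% of the 8575 genes, and the CCAAT letters on either strand occurred in 75.6% against 37.3%. These letters are known from late cell cycle promoters. The shares cover list members called or not, and describe the list and not the drug response. The stretches were picked after the search. They are shown with the letters in capitals for HMMR (chr5:163460589-163460630) and for CCNB2, the cyclin B2 gene (chr15:59105102-59105137), where they lie just before the start, and for the spindle gene DLGAP5 (chr14:55191674-55191738, minus strand).
HMMR: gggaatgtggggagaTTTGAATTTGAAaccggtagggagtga
CCNB2: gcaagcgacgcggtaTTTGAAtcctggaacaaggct
DLGAP5: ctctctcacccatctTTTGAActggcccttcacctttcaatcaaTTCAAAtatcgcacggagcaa
In HMMR the letters stand 28 and again 22 bases before the start, in CCNB2 29 bases before it, and in DLGAP5 at 138 bases and, on the opposite strand, at 109.

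**Figure D4:**
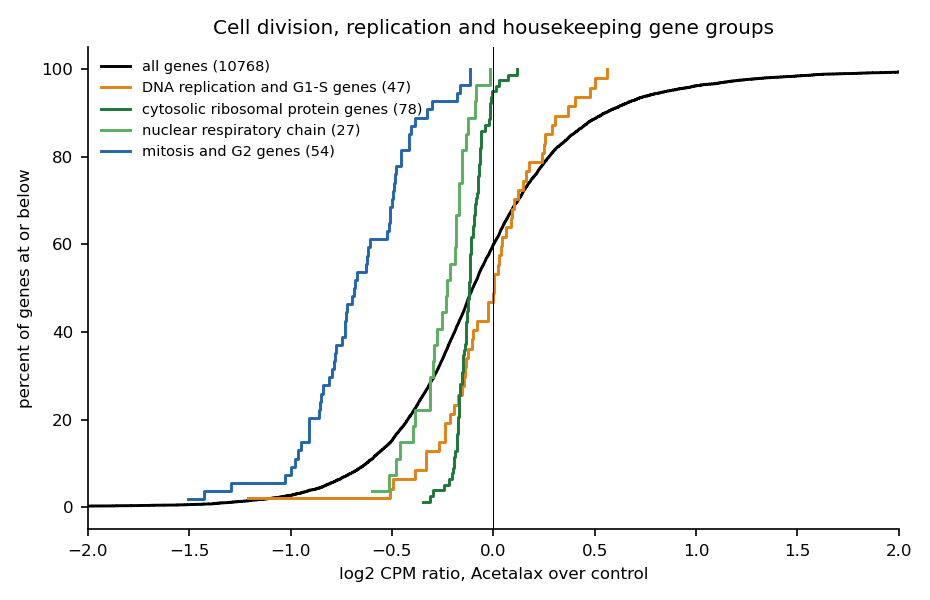
Cumulative percent of genes at or below each log2 CPM ratio for all 10768 genes and for 4 gene lists (number of genes in brackets). The curve of the 54 mitosis genes reaches 100% left of 0, the curve of the 47 replication genes crosses 0 near its middle, and the ribosomal protein and respiratory chain genes rise steeply just left of 0.

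Cell cycle inhibitors, D cyclins and GADD45 genes counted 4 rises and 1 fall of 23. CDKN1A, which encodes the inhibitor p21, rose from 1136 to 7756 counts (2.77, 2.68 to 2.86) and the growth arrest gene GADD45A from 4061 to 17191 counts (2.08). CCND1, cyclin D1, rose from 9729 to 21051 counts (1.12) and its partner CDK6 from 1429 to 3022 counts (1.08), and CDKN2C fell. CDKN1A was thus higher at the same time as CCND1 and CDK6. CDK4 stayed under 2-fold, and RB1, also on the list, was under the filter. The median was 0.03, and -0.00074 with the total of protein-coding nuclear genes. Of 43 homologous recombination, Fanconi and repair genes 0 were called, and the median was -0.23, with XPA (-0.92) and XRCC1 (-0.83) lowest. Replication-dependent histones end without a poly(A) tail, so a poly(A)-selected library counts only their polyadenylated forms. Of 6 measured 3 fell, HIST1H2BD (-1.37), HIST2H2BE (-1.30) and HIST1H2AC (-1.16), and the median was -0.91.

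Calls in the lists of stress pathways are given beside 3.85% of all genes called higher and 2.71% called lower. PPP1R15A (GADD34), which restores translation after phosphorylation of eIF2, rose from 2240 to 17305 counts (2.95, 2.89 to 3.02), 1 rise among 31 ATF4 target and amino acid supply genes. In the same list CHAC1 (-1.17) and DDIT4, an inhibitor of mTORC1, from 8323 to 2172 counts (-1.94), fell. TRIB3 had 13113 and 7152 counts (-0.87), and the median was 0.02 (-0.02 with the total of protein-coding nuclear genes). DDIT3, ASNS and FGF21, also on that list, were under the filter and are not among the 31. Among 28 endoplasmic reticulum chaperone and quality control genes HSPA5, which encodes BiP, rose from 23554 to 51584 counts (1.13, 1.11 to 1.15), 0 fell and 21 had a ratio above 0 (median 0.21). XBP1, the transcription factor of that response, had 18976 and 10729 counts (-0.82), and MANF (0.83) and ERO1L (0.89) were on the higher side.

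The endoplasmic reticulum stress element was searched on both strands as CCAAT, any 9 bases and CCACG. The search took list members called or not, so its shares describe the list and not the drug response. The element was found in 7 of the 26 list members with a window (26.9%) and in 0.152% of all 8575 genes. It is shown in capitals for HSPA5 (chr9:125241376-125241424, minus strand), where it begins 66 bases before the start, and for XBP1 (chr22:28800588-28800636, minus strand), 52 bases before it, because the 2 genes carried the element and differed in the direction of their ratio.
HSPA5: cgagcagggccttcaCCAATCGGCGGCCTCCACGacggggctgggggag
XBP1: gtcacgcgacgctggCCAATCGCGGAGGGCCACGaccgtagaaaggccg
HSPA5 rose past 2-fold, and XBP1 stayed under it.

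No heat shock chaperone of 19 was called (0), and their median was 0.02 (-0.02 with the total of protein-coding nuclear genes, range -0.49 to 0.45). HSPA1A, HSPA1B, HSPA1L, HSPA6 and HSPB8, also on that list, were under the filter and are not among the 19. Of 29 NRF2 target and glutathione genes TXNRD1, thioredoxin reductase, rose from 11985 to 24458 counts (1.03), 0 fell, HMOX1 had -0.83 and the median was -0.12. With the total of protein-coding nuclear genes TXNRD1 was under 2-fold, and 0 of the 29 were called. FOXO and energy stress genes gave 3 rises of 25, the insulin receptor substrates IRS2 (1.46) and IRS1 (1.33) and the autophagy gene GABARAPL1 (1.17), with a median of 0.25. Of 33 glycolysis and hypoxia-inducible genes ADM, adrenomedullin, from 344 to 2352 counts (2.78), and the glycolytic regulator PFKFB3 (1.24) rose and DDIT4 fell (median 0.05).

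Genes of cell death were close to the median of all genes. Of 19 lytic cell death effectors 1 was called, NINJ1, whose protein ruptures the plasma membrane of dying cells, from 2227 to 1072 counts (-1.05, -1.16 to -0.95), a fall that was under 2-fold with TMM scaling. The list's median was -0.11, and 0.00032 with TMM scaling. In the BCL2 family of 16 genes BMF, which promotes apoptosis, fell from 846 to 204 counts (-2.05), BCL2L11 (BIM) had 1945 and 979 counts (-0.99), and MCL1, which prevents it, 24195 and 39476 counts (0.71), with a median of 0.05.

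Ion channel and transport lists are given because TRPM4 carries sodium and other cations. Of 9 TRP channels 0 were called (median -0.04, 0.07 with TMM scaling), with TRPV6 at -0.49 and PKD2 at 0.49. Among 18 genes of the volume-regulated anion channel and osmolyte transport 3 rose and 0 fell (median 0.36): NFAT5, the factor that answers high salt, from 1139 to 2501 counts (1.14), the taurine transporter SLC6A6, from 1728 to 4934 counts (1.52), and LRRC8A, the obligatory subunit of the channel, from 3955 to 8640 counts (1.13). Another subunit gene, LRRC8D, had 5528 and 2787 counts (-0.99). Of 13 sodium pump, sodium exchanger and aquaporin genes the kinase SGK1, from 495 to 1524 counts (1.62), the ubiquitin ligase NEDD4L, from 1639 to 5192 counts (1.67), and the bicarbonate transporter SLC4A7 (1.18) rose, and 0 fell (median 0.14). SGK1 is known to inhibit NEDD4L, which removes sodium channels from the membrane.

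Of 26 genes of calcium pumps, release and entry NFATC2, a calcium-dependent transcription factor, rose from 817 to 3542 counts (2.12), and ATP2A2, the calcium pump of the endoplasmic reticulum, had 16418 and 25481 counts (0.64). The median was 0.03, and -0.01 with the total of protein-coding nuclear genes. The 159 solute carriers gave 6 rises and 8 falls, the share of falls being above the 2.71% of all genes, and a median of -0.04 (0.07 with TMM scaling). Besides SLC6A6 and SLC4A7, the phosphate transporters SLC20A1 (1.29) and SLC20A2 (1.11) and the zinc transporter SLC39A14 (1.18) rose, and the amino acid transporter SLC43A2 (-1.63) and the glucose transporter SLC5A1 (-1.34) fell. SLC1A1 (1.24) also rose, and the other falls were SLC46A3 (-1.25), SLC2A10 (-1.23), SLC34A2 (-1.23), SLC28A3 (-1.08), SLC35A1 (-1.03) and SLC15A2 (-1.01). With TMM scaling 7 solute carriers rose and 5 fell.

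Of 27 sterol and fatty acid synthesis genes 6 rose and 1 fell (median 0.13). Among the rises were the cholesterol synthesis genes HMGCS1, from 6241 to 14816 counts (1.25, 1.21 to 1.29), MSMO1 (1.09) and CYP51A1 (1.04), the cholesterol exporter of the lysosome NPC1 (1.19) and the feedback gene INSIG1 (1.11). SREBF1, which encodes the factor of fatty acid synthesis, fell from 10423 to 3023 counts (-1.78, -1.84 to -1.73). Of 13 retinoid genes ALDH1A3, a retinaldehyde dehydrogenase, rose from 13733 to 36403 counts (1.41) and 10 had a ratio below 0, with DHRS3 at -0.99 and a median of -0.48. Of 7 drug efflux and conjugation genes CES2, a carboxylesterase, fell (-1.03), to under 2-fold with TMM scaling, and ABCC4 had 0.71 (median -0.14).

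Respiratory chain genes mostly had ratios slightly below 0. All 27 nuclear genes of the chain had a ratio below 0, with 0 called, a median of -0.23 and a range from -0.60 to -0.02, and with TMM scaling 24 of the 27 were below 0. Of the 13 mitochondrially encoded genes 11 had a ratio below 0, with either scaling, 0 were called and the median was -0.29. MT-ND6 had 89409 and 53378 counts (-0.74) and MT-ND5 336322 and 217715 counts (-0.63). All genes of the mitochondrial genome together took 10.0% of the counts in the control and 7.89% after Acetalax. Cytosolic ribosomal protein genes had a ratio below 0 in 74 of 78 cases, with 0 called and a median of -0.12, close to that of all genes, and with TMM scaling 48 were below 0. Processed copies of these genes make their counts uncertain. Of 26 MYC target and ribosome biogenesis genes 22 had a ratio above 0, 0 were called and the median was 0.16.

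Of 22 interferon-stimulated genes 18 had a ratio below 0, beside 59.9% of all genes, and the median was -0.30. With TMM scaling 6 of the 22 had a ratio above 0, beside 50.8% of all genes. IFIT3 fell from 471 to 147 counts (-1.68, -1.96 to -1.41), and 0 rose. TRIM22 (-0.98), PARP9 (-0.89) and OAS1 (-0.81) stayed under 2-fold. Of 14 genes of MHC class I antigen presentation 0 were called (median -0.02, 0.09 with TMM scaling), with TAP1 at 0.53 and PSMB8 at -0.57. Zinc finger ZNF genes numbered 4 rises and 5 falls of 337, with a median of -0.12. They made up 3.26% of the protein-coding genes measured, but 1.02% of the risen and 1.82% of the fallen ones. The rises were ZNF469 (1.496), ZNF600 (1.32), ZNF143 (1.16) and ZNF516 (1.16) and the falls ZNF750 (-2.70), ZNF467 (-1.56), ZNF737 (-1.11), ZNF235 (-1.07) and ZNF837 (-1.03). With TMM scaling 5 ZNF genes rose and 2 fell. The 13 small nucleolar RNA host genes had 0 calls and a median of 0.08.

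Of the 442 noncoding and other genes measured, pseudogenes among them, 24 rose and 18 fell, beside 3.85% and 2.71% of all genes. RP1-140K8.5, an intergenic RNA (chr6:3905144-3912213), rose from 228 to 2698 counts (3.57), LINC00707 from 90 to 689 counts (2.94) and MIR24-2, the host transcript of a microRNA cluster, from 867 to 3208 counts (1.89). HIF1A-AS2 (2.40) and RP11-66B24.4 (1.87) lie across HIF1A and ALDH1A3. AC005013.1, from 1061 to 158 counts (-2.75), and RP11-115D7.3 (-1.71) are annotated as pseudogenes and fell, as did LINC00689 (-1.61), AC016747.3 (-1.56) and AP001372.2 (-1.51), which overlap VIPR2, KIAA1841 and POLD3. The library kit keeps strand, but which strand column of the counts was deposited is not stated, so reads of these overlapping genes cannot be told apart from those of their partners.

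The risen and fallen protein-coding genes differed little from the rest in structure. Median merged exon length was 5727 bases for the 391 risen, 5307 for the 274 fallen and 5678 for all 10326 genes (10325 with a length), with 8, 7 and 8 exons in the longest transcript. Both sets were less abundant in the control, at a median of 24.5 CPM for risen and 22.3 CPM for fallen genes against 42.0 CPM for all. A choice by ratio favours low counts, whose ratios vary more, so this is a description. Genes under 1 CPM in the BT549 control library made up 6.97% of all, 16.4% of the risen and 31.0% of the fallen genes.

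The same drug and time in the other 3 backgrounds used other libraries, so values can be set side by side without shared controls. Of the 415 risen genes 396 had at least 5 CPM in MDA-MB468 CE cells, and 97.0% of these were higher there, against 43.0% of all genes measured in both pairs. At least 2-fold rises were found for 34.8% (all genes, 1.45%), with a median ratio of 0.80 beside 1.37 for the same genes in parental cells. In BT549 parental cells 314 could be compared, 64.6% were higher (all genes, 37.3%) and 12.4% at least 2-fold (1.03%), with a median of 0.22. In BT549 CE cells the values were 78.8% (37.4%), 37.7% (3.52%) and 0.70 for 316 genes. Of the fallen genes 273 could be compared in MDA-MB468 CE cells, where 99.6% were lower (all genes, 57.0%) and 41.4% at least 2-fold lower (1.59%). The shares were 88.7% (62.7%) and 9.86% (1.05%) of 142 in BT549 parental cells, and 95.3% (62.6%) and 66.2% (9.11%) of 148 in BT549 CE cells. Each background has 1 library a side, and genes picked for a large ratio in 1 pair tend to have a smaller ratio in any other.

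**Figure D5:**
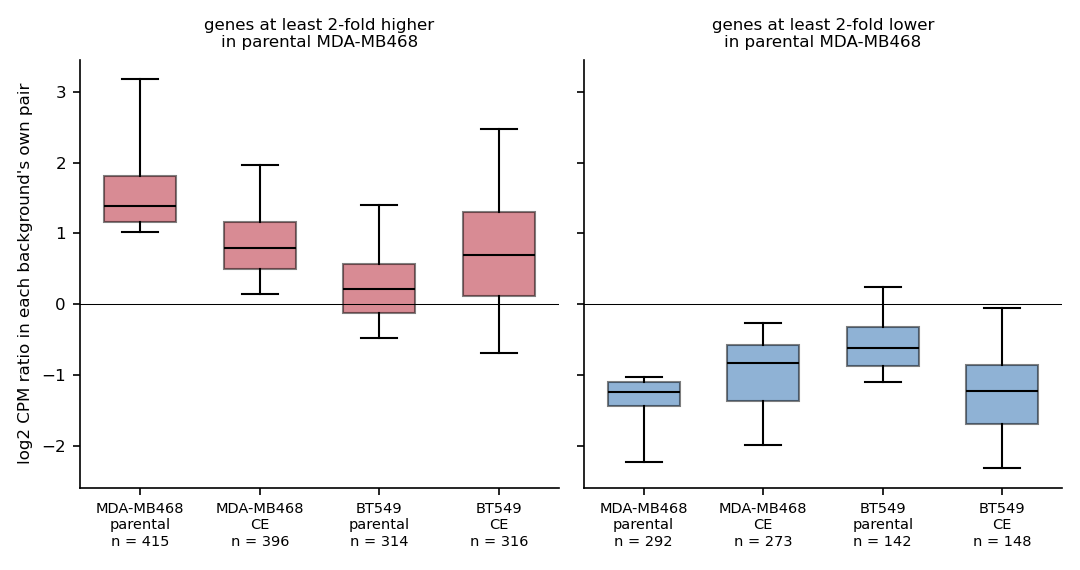
Log2 CPM ratio, in each background's own pair of libraries, of the genes called at least 2-fold higher (left) and lower (right) in parental MDA-MB468 cells, which chose them. Boxes span the 25th to 75th percentile with the median, whiskers the 5th to 95th percentile, and n is the number of genes with at least 5 CPM. Median ratios of the risen genes are 0.80 in MDA-MB468 CE, 0.22 in BT549 parental and 0.70 in BT549 CE cells.

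Named genes and lists differed between the backgrounds as follows, as values of single pairs. All 20 of the largest rises were at least 2-fold higher in MDA-MB468 CE cells too, as were 4 of the 16 measured in BT549 parental cells and 11 of the 17 measured in BT549 CE cells. FOSL1 had 3.15 in MDA-MB468 CE, 0.40 in BT549 parental and 2.73 in BT549 CE cells beside 5.76, and IL6R 1.96, -0.69 and 0.42 beside 6.39. IL8 was higher in all 4, with 3.32, 2.10 and 6.13 beside 5.13. EGFR had 1.08, 0.27 and 0.82 beside 1.48. List medians in the order MDA-MB468 parental, MDA-MB468 CE, BT549 parental and BT549 CE were 1.09, 0.40, -0.07 and 0.28 for YAP-TAZ genes and 0.56, 0.55, -0.01 and 0.01 for actin and SRF genes. For mitosis genes they were -0.68, -0.26, -0.11 and -0.56, and for cytosolic ribosomal protein genes -0.12, -0.05, 0.14 and 0.14. Of the 20 largest falls 19 were at least 2-fold lower in MDA-MB468 CE cells, 3 of 12 measured in BT549 parental cells and 7 of 12 in BT549 CE cells.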

How the data were processed

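Poly(A)-selected RNA was sequenced in paired reads, 1 library for each of the 2 conditions. The authors aligned reads to hg19 with STAR (2.7.11b in the submitters' processing notes) and counted them per gene with STAR's GeneCounts mode, and the deposited values are these raw counts, with nothing pooled. Annotation version and the strand column used are not given in the sources used here. Reads with several placements are not counted in that mode, so near-identical genes are undercounted.

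From the counts, 1 value was taken per identifier (55679 identifiers, 1392 of them listed repeatedly, 3 with unequal counts, of which the first was kept). CPM, log2 ratios (Acetalax over control), exact intervals for the ratio of 2 Poisson counts and a 2-fold call were computed in Python 3.11.15 (SciPy 1.17.1, pandas 2.3.3, matplotlib 3.10.9), for genes with mean CPM of at least 5. No test across samples was run, since there is 1 library a side. The intervals were tested on simulated counts. A CPM of 1 corresponds to 48.6 counts in either library, and the median width of an interval was 0.185 on the log2 scale. Scaling by TMM (edgeR 4.0.16) and by size factors (DESeq2 1.42.0, both in R 4.3.3), the total of protein-coding nuclear genes, other filters, a pseudocount of 1 CPM, log2(FPKM+1) and other fold thresholds were tried as alternatives.

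Genes are named by a rule: the top 20 protein-coding genes each way by ratio, the top 5 noncoding genes each way, TRPM4, and in each of 51 gene lists the members past 2-fold, or otherwise up to 4 with the largest change. Some genes that the rule covers are not reported here. The comparison, the lists and the rule were chosen with earlier results of these data known.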

Additional observations from a re-analysis of the deposited data

Results flagged for a closer look

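The values here are differences between 2 log2 CPM ratios, each from 1 library a side, and were picked because both ratios passed 2-fold in opposite directions. None of the differences was tested. Against BT549 parental cells 5 genes did so among 9247 measured in both pairs. Against MDA-MB468 CE cells 1 gene did among 10602, and against BT549 CE cells 11 genes did among 9280. Of the risen genes 0.955% fell 2-fold in BT549 parental cells, beside 1.05% of all genes. In MDA-MB468 CE cells 0.253% did (all genes, 1.59%), and in BT549 CE cells 2.85% (9.11%). Of the fallen genes 1.41% rose 2-fold in BT549 parental cells (all genes, 1.03%) and 1.35% in BT549 CE cells (3.52%). Opposite calls were thus no more common than such calls among all genes, or close to it. NR4A2, an orphan nuclear receptor gene, fell in parental MDA-MB468 cells (893 to 346 counts, -1.37) and rose in BT549 parental cells (164 to 915 counts, 2.44), a difference of -3.80. FAM46C, a gene for a poly(A) polymerase, fell from 855 to 339 counts (-1.33) and rose in BT549 from 109 to 408 (1.86), a difference of -3.20. ZNF702P, a zinc finger pseudogene, rose from 450 to 1337 counts (1.57) and fell in BT549 from 752 to 346 (-1.16), a difference of 2.73. WNT5A, a ligand of noncanonical WNT signalling, rose from 222 to 472 counts (1.09) and fell in BT549 from 861 to 351 (-1.34), a difference of 2.43. SYBU, which links vesicles to kinesin, rose from 1033 to 2246 counts (1.12) and fell in BT549 from 378 to 174 (-1.16), a difference of 2.28. CREBRF, a regulator of CREB3, rose from 616 to 1248 counts (1.02) in parental MDA-MB468 cells and fell from 671 to 315 (-1.20) in MDA-MB468 CE cells, a difference of 2.22. Against BT549 CE cells NR4A2 (112 to 1145 counts there, 3.45) had a difference of -4.82 and CHAC1, a glutathione-degrading enzyme gene that fell in parental MDA-MB468 cells (-1.17) and rose there (529 to 1728 counts, 1.81), one of -2.98. The other 9 rose in parental MDA-MB468 cells and fell in BT549 CE cells. SOCS2 fell there from 471 to 204 counts (-1.11 beside 3.20), a difference of 4.31, and the plectin gene PLEC from 78706 to 34620 (-1.08 beside 1.61), a difference of 2.69. ID3, an inhibitor of helix-loop-helix factors, fell there from 21508 to 8380 counts (-1.26 beside 1.11), a difference of 2.37, and WNT5A from 637 to 211 (-1.49), a difference of 2.58. The differences of the rest were 3.34 for PCDH7, 3.29 for MIEF2, 2.96 for ZNF702P, 2.37 for FAM20C and 2.24 for HEG1.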

How the results depend on the processing

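Of the 286 named genes, TRPM4, whose ratio of -0.04 is close to 0, changed its sign with TMM scaling (0.07) and DESeq2 size factors (0.05). Every other named gene had the same sign with these 2 scalings, and all 286 had it with the total of protein-coding nuclear genes, a pseudocount of 1 CPM and log2(FPKM+1). With TMM scaling the median over all genes was 0.0070 in place of -0.10. A filter at a mean of 1 CPM gave 628 higher and 607 lower genes, and no filter (at least 1 count in both libraries) 2661 and 2517, in which low counts take a large part. Differences of log2(FPKM+1) passed 1 downwards for 100 genes, since adding 1 shrinks the change of low genes. A 1.5-fold threshold gave 998 higher and 1253 lower genes and a 3-fold threshold 145 and 53. The other settings stayed within 1.5 times of the 415 and 292 calls. Medians of 4 lists changed sign with TMM scaling, of 3 with DESeq2 size factors and of 5 with the total of protein-coding nuclear genes, each by values close to 0. No paired analysis was possible because each condition has 1 library and the labels carry no replicate numbers. The filter at a mean of 5 CPM was a choice and not a limit of depth, since 1 CPM is 48.6 counts in either library. Biological variation between cultures could not be estimated at any depth.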

Other observations

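Further gene groups were collected after the values were seen, so their counts are a description and support nothing. Genes under the aryl hydrocarbon receptor were measured as 7 genes, of which 3 rose. Besides CYP1A1 these were CYP1B1, from 10807 to 35398 counts (1.71), and the receptor's repressor TIPARP, from 683 to 3243 (2.25). The other 4 were AHR itself (0.23), NQO1 (-0.12), ARNT (-0.31) and ALDH3A1, which went from 384 to 262 counts (-0.55). Laminin-332 and hemidesmosome genes, which fix basal cells to their basement membrane, counted 4 rises of 9, among them the laminin chain LAMB3, from 400 to 2640 counts (2.72), integrin ITGA3, from 6611 to 17699 (1.42), and plectin PLEC, from 21636 to 65843 (1.61). Another laminin chain, LAMA3, had a ratio of 0.60, and the integrin ITGB4 (-0.13) and CD151 (-0.07) had ratios below 0. The connexin gene GJC1 rose from 1390 to 2815 counts (1.02), and GJB5 had 0.63.

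Other groups held falls and no rise past 2-fold. POU2F3, the master regulator of tuft cells, fell from 783 to 321 counts (-1.28), together with all 4 genes taken as its partners or neighbours on chromosome 11, COLCA1, COLCA2, POU2AF1 and C11orf53 (from 1020 to 360 counts, -1.501). The 3 Toll-like receptor genes above the filter fell, TLR1 from 450 to 123 counts (-1.87), TLR5 from 451 to 128 (-1.82) and TLR6 from 1516 to 500 (-1.60). Of 8 suprabasal and squamous differentiation genes 3 fell and 7 had a ratio below 0, with the cornification gene CASP14 at 67349 and 31736 counts (-1.08) beside GRHL3 and ZNF750. With TMM scaling the change of CASP14 lay under 2-fold.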
